A study of Homo sapiens with 3 samples.

Results

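Gene expression of U87WT cells kept with IGF1 and OSI906 was compared with that of the same cells in FBS-free medium. The comparison covered the 16969 genes, of 25002 named genes with a probe on the array, that had a probe well above background in U87WT under both conditions (67.9%). In probes these were 32005 of 58201 (55.0%), and no gene was chosen for its change. U87WT 5 is a clone of U-87MG, a human glioblastoma line, selected with G418 after stable transfection with GFP-IGF1R, the type 1 IGF receptor joined to green fluorescent protein. U87Mut 5 is a clone of the same line that carries GFP-IGF1R1025x-1100x-1120x, in which the lysines that take up SUMO were changed so that the receptor does not enter the nucleus. Each array held RNA of both clones, with Cy5 for U87WT and Cy3 for U87Mut, and there was 1 array for FBS-free medium, 1 for IGF1 (50 nM) and 1 for IGF1 (50 nM) with OSI906. Both clones thus carry an IGF1R transgene in every condition, and each receptor form is represented by 1 clone. The labels give 24 h for all 3 conditions, and column heads of the study's own expression table name a shorter time for the conditions with IGF1. For OSI906 the name of the sample gives 0.5 μM while the description of its medium gives 500 μM.

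IGF1 activates the tyrosine kinase of IGF1R, which signals through insulin receptor substrates to PI3K and AKT and through Ras to ERK. OSI906 (linsitinib) is a small molecule that blocks the kinases of IGF1R and of the insulin receptor. FBS-free medium holds neither ligand nor inhibitor, so the comparison asks how far cells given the ligand together with the inhibitor differ from cells that received no stimulus. It is not the effect of OSI906 under IGF1, and the design holds no array with OSI906 alone, so an effect of the compound, of residual IGF1 signaling and of the culture or array cannot be told apart.

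Since every condition was measured once, no difference has a replicate error or a p value, and the number of arrays limits the precision. All levels are normalized log2 intensities and can be compared between arrays for 1 probe, not between genes. A gene is described as risen or fallen when its log2 difference (IGF1 with OSI906 minus FBS-free medium) was past 1 in size, a 2-fold difference. Members of gene lists were also counted past 0.5. The only repeats lie within the arrays: 284 probes were printed 10 times, and the SD of their difference over these spots had a median of 0.068 and a maximum of 0.152. Different probes of 1 gene, available for 4539 genes, spanned a median range of 0.18. Median brightness of the Cy5 channel was 33 on the FBS-free array and 35 on the array with OSI906, 0 spots were saturated, and medians of the difference over 16 blocks of the array lay between -0.04 and 0.02. In the background correction the fitted SD of the Cy5 background was 5.17 on the FBS-free array, 1.32 on the IGF1 array and 0.41 with OSI906. In Cy3 the fitted SD lay between 0.44 and 0.51. What this unlike fit does to dim probes was not tested. On the FBS-free array 366 spots had a local background over 2 times the median of their channel, against 20 on the array with OSI906 and 672 on the IGF1 array, so that levels with IGF1 alone also include such spots. VIM, CD44 and FN1, genes of mesenchymal glioma cells, were above background on both arrays by every probe, while of the glial markers GFAP and SOX2 were not above background on either, S100B and OLIG2 were above it on both at levels between 5.99 and 6.10, and AQP4 and MBP were above it by 1 probe each.

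Nearly all genes differed little. The log2 difference had a median of 0.00 and an interquartile range of 0.21 over all probes, and 96.4% of probes lay within 0.5 of 0. By probe, 78 of 32005 rose (0.244%) and 31 fell (0.0969%). Past 0.5 were 2.05% of probes upward and 1.52% downward. By gene, each given by its brightest probe, 56 of 16969 rose (0.33%) and 21 fell (0.124%). The number of genes past 0.5 was nearly the same in both directions, 366 higher (2.16%) and 370 lower (2.18%). At the limit itself PRKCZ-DT, at 1.003, was the last probe counted as risen and CYTH4, at 0.997, the first left out. Among falls PLS3, at -1.001, was just past the limit and a probe of MITF, at -0.999, just inside it. For comparison, IGF1 alone against the same FBS-free array raised 101 of 31433 probes (0.321%) and lowered 67 (0.213%) in U87WT, with 1.67% of probes past 0.5 upward and 2.44% downward. Both comparisons share the FBS-free array. Local background in Cy5 reached 66985 on the IGF1 array, against 373 on the FBS-free array and 45 on the array with OSI906. How many of the probes raised or lowered with IGF1 alone lie on spots with raised background was not counted.

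**Figure D1:**
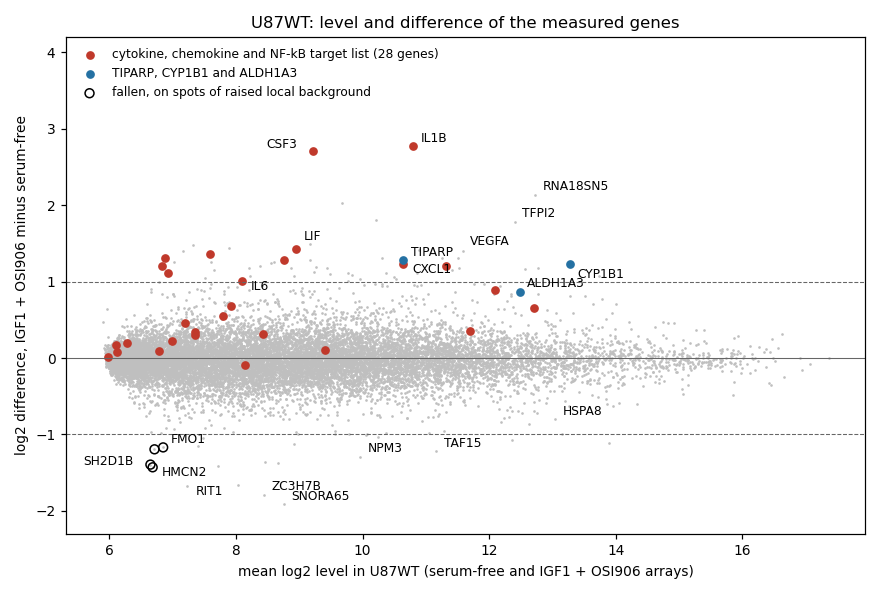
Each point is 1 of the 16969 genes, with the mean normalized log2 level of U87WT on the FBS-free and IGF1 with OSI906 arrays on the x axis and the log2 difference between them on the y axis; dashed lines mark 1 and -1. The genes of the cytokine list (red) lie mostly above 0, with IL1B at 2.77 and CSF3 at 2.71 above all others, and the circled fallen genes come from spots with raised local background on the FBS-free array.

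The most prominent change was a rise of inflammatory cytokines and chemokines. Of 34 genes listed as cytokines, chemokines and NF-kB targets, 28 were measured, 27 of these were above 0, 15 were past 0.5 and 11 past 1, and none was below -0.5. Over all 16969 genes 46.0% were above 0 and 53.5% below 0. Their median was 0.60, against -0.02 over all genes. The list was drawn up with earlier results of these arrays known, so its median is a description of these genes and not independent evidence.

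IL1B, which encodes interleukin-1 beta, a cytokine that starts inflammatory signaling, had a level of 9.41 in FBS-free medium, 9.25 with IGF1 and 12.19 with IGF1 and OSI906. Its difference of 2.77 was the highest of all genes and corresponds to 6.84-fold. CSF3, the granulocyte colony-stimulating factor gene, read 7.86, 8.09 and 10.57 in the same order, a difference of 2.71, and its second probe rose as well. In both genes the array with OSI906 stood alone, and the other 2 arrays lay within 0.23 of each other. LIF, a cytokine of the interleukin-6 family, went from 8.23 in FBS-free medium and 8.34 with IGF1 to 9.66, a difference of 1.43 that its other probe gave as 0.22.

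The CXC chemokines that attract neutrophils moved alike. CXCL1 had a level of 10.02 in FBS-free medium, 8.88 with IGF1 and 11.26 with IGF1 and OSI906, so its difference was 1.23 while IGF1 alone lay 1.14 below FBS-free medium. CXCL2 read 10.71, 10.12 and 11.92, a difference of 1.21. CXCL3 went from 6.91 in FBS-free medium to 8.27, a difference of 1.37, and IGF1 alone was at 0.09 from FBS-free medium. These paralogs have similar sequences, and binding of 1 transcript to the probe of another was not tested. CXCL8, the interleukin-8 gene, was higher by 1.31, and CCL2, a chemokine that attracts monocytes, by 1.28. The probe of CCL2 was printed 10 times, and its difference over these spots was 1.26 ± 0.07 (SD). IL1A was higher by 1.21, PTGS2, the inducible cyclooxygenase, by 1.11, and IL6 by 1.01. Levels of CXCL8, IL1A and PTGS2 were low in FBS-free medium, between 6.22 and 6.37, near the dim end of the array, where the offset of 50 added to every signal makes differences smaller.

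NF-kB is held in the cytoplasm by inhibitor proteins, and its own inhibitors are among its targets. NFKBIA, which encodes such an inhibitor, was higher by 0.66, with 0.66 ± 0.04 (SD) over 10 spots. RELB, a subunit of NF-kB, was higher by 0.89, TNFAIP6, a hyaluronan-binding protein, by 0.69 and ICAM1, an adhesion molecule, by 0.55. NFKB2 at 0.34, TNFAIP3 at 0.31 and NFKB1 at 0.11 did not pass 0.5, nor did TNF at 0.18 or VCAM1 at 0.01. CSF1 was the only measured member below 0, at -0.10. CSF2 and CCL20 were well above background only on the array with OSI906, at least 1.17-fold and 1.11-fold higher, and IL33 only on the FBS-free array, at least 1.28-fold lower. IL24 at 1.45, EREG at 1.25, an EGF receptor ligand, and TNFRSF1B at 1.25, a TNF receptor, also rose and are not on the list. These 3, and the cytokine genes beyond IL1B, CSF3, LIF and CXCL3, were singled out after their values were seen.

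**Figure D2:**
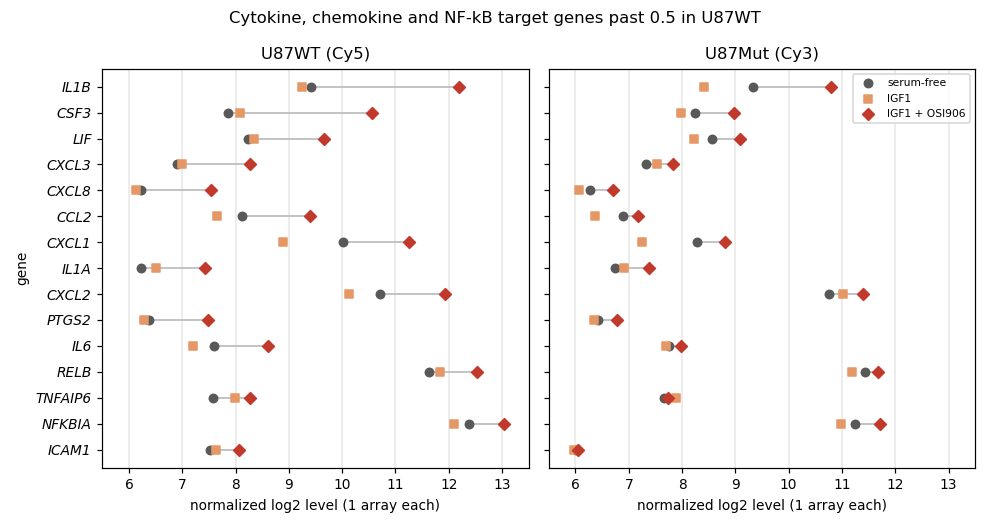
Normalized log2 levels (x axis, 1 array per point) of the 15 members of the cytokine list past 0.5 in U87WT, in FBS-free medium (circles), with IGF1 (squares) and with IGF1 and OSI906 (diamonds), for U87WT on the left and U87Mut on the right; grey lines join FBS-free medium and IGF1 with OSI906. In U87WT the diamond is the highest point of every gene, and the distance from circle to diamond is shorter in U87Mut, 1.46 against 2.77 for IL1B.

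The promoters of CXCL1, CXCL2, CXCL3 and IL6 are shown because these genes rose together and hold the letters of a κB-type site, which in the chemokine genes among them stand at nearly the same place. The 250 bases before the transcription start were taken from RefSeq (GRCh38.p14) and searched on both strands for GGG and TTCC separated by 3 bases of any kind, a short form of the κB site. Of the 11 cytokine genes past 1, 8 had a promoter in the table (CSF3, LIF and CCL2 did not), and 4 of these, CXCL1, CXCL2, CXCL3 and IL6, held the motif, against 8.37% of the 13022 measured genes with a promoter. IL1A, IL1B, CXCL8 and PTGS2 did not hold it. The list names NF-kB targets and the chemokine promoters resemble each other, so this share describes these genes and is no evidence on their rise. In CXCL1, CXCL2 and CXCL3 the matches on the 2 strands overlap, 1 base apart, and begin at position -79 relative to the start in CXCL1 and CXCL3 and at -78 in CXCL2. In IL6 the match begins at -73. Over the last 100 bases before the start CXCL1 shared 90 bases with CXCL3 and 73 with CXCL2, without gaps. The sequences are written 5′ to 3′ with the matches in capitals.
CXCL1, chr4:73869143-73869392, plus strand: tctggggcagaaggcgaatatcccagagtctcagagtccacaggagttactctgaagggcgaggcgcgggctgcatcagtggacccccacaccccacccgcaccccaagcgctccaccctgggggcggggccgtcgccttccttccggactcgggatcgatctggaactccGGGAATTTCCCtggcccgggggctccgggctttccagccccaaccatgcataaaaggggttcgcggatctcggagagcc
CXCL2, chr4:74099196-74099445, minus strand: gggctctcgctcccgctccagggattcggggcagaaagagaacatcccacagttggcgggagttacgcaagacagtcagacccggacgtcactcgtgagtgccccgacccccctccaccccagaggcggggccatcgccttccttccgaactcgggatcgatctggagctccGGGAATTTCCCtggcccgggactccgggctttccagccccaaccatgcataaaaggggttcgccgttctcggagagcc
CXCL3, chr4:74038690-74038939, minus strand: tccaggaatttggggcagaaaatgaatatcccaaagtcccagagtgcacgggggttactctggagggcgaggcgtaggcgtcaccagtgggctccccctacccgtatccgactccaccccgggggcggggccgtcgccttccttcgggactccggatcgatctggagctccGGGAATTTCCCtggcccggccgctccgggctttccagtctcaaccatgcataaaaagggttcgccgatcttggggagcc
IL6, chr7:22726950-22727199, plus strand: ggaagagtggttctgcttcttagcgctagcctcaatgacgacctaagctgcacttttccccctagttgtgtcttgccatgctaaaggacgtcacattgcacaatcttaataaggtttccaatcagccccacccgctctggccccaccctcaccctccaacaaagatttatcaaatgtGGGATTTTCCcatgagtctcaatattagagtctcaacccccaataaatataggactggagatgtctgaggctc
Of all 56 risen genes 37 had a promoter and 8 of these the motif (21.6%), with CXCL1, CXCL2, CXCL3 and IL6 among the 8. In the fallen genes the motif was found in 0 of 15, too few genes to tell from the 8.37% of measured genes. A match describes letters in this window and not binding of a factor.

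A second set of genes was higher by similar amounts in both clones, a trait shared with some genes outside this set. TIPARP, an ADP-ribosyltransferase induced by the aryl hydrocarbon receptor, had a level of 10.00 in FBS-free medium, 9.90 with IGF1 and 11.28 with IGF1 and OSI906 in U87WT, and of 10.10, 10.03 and 11.36 in U87Mut. Its differences were thus 1.28 and 1.25. CYP1B1, a cytochrome P450 that is a well-known target of the same receptor, read 12.66, 12.35 and 13.89 in U87WT, a difference of 1.23, and its difference in U87Mut was 1.28. Both probes of CYP1B1 rose, by 1.06 and 1.23. ALDH1A3, which makes retinoic acid, was higher by 0.87 in U87WT and 0.75 in U87Mut. The array with OSI906 was the highest of the 3 for each of these genes in either clone, and IGF1 alone lay between 0.10 and 0.32 below FBS-free medium in U87WT.

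The list of aryl hydrocarbon receptor and NRF2 genes to which they belong did not move as a whole. Of its 22 measured members 5 were past 0.5 and 1 below -0.5, against 2.16% and 2.18% of all genes. The median was 0.13, against -0.02 over all genes, so a few members were higher while most lay within 0.5 of 0. For the 21 members measured in both clones the median was 0.14 in U87WT and 0.09 in U87Mut. With channels scaled to 1 median these were 0.17 and -0.16, so likeness of the clones depends on the scaling. CYP1A1, the classical target of the receptor, was at the dim end of the array, at 6.01 and 6.14, and differed by 0.13. SLC7A11, the cystine transporter, was higher by 0.65 and OSGIN1 by 0.61, whereas the NRF2 targets NQO1 at 0.14 and HMOX1 at -0.08 were near 0, and AKR1B10, an aldo-keto reductase, was lower by 0.73. The promoter of TIPARP that starts furthest upstream is shown with GCGTG, the core of the sites this receptor binds, and its reverse complement CACGC in capitals.
TIPARP, chr3:156674340-156674589, plus strand: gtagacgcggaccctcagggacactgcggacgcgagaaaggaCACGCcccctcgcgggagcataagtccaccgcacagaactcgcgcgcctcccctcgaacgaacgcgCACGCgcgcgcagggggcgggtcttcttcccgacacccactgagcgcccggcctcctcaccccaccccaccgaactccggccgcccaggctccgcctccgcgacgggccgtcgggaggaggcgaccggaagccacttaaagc
It held the core 2 times, the other 2 promoters listed for TIPARP held none, and 48.1% of measured genes with a promoter hold it, so the letters are common.

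The other bright genes that rose belong to no single list. TFPI2, a secreted inhibitor of serine proteases, had levels of 11.51 in FBS-free medium, 11.61 with IGF1 and 13.30 with IGF1 and OSI906, a difference of 1.78. THBD, thrombomodulin, rose from 8.43 to 9.92, and ITGB3, the integrin beta 3 subunit, from 10.19 to 11.61, a difference of 1.42. VEGFA, the vascular endothelial growth factor gene, read 10.88, 11.15 and 12.28, a difference of 1.41 by its brightest probe and 0.45 by the other. CYB561A3, a lysosomal iron reductase, rose by 1.55, MT1F, a metallothionein that binds zinc and copper, by 1.31, and IER3, an immediate early gene that is also an NF-kB target, by 1.31 with 1.33 by its second probe. In all of these the levels of FBS-free medium and IGF1 lay within 0.49 of each other, below the level with OSI906. RBFOX3, a neuronal RNA-binding protein, rose by 1.29 by 1 of its 2 probes, the other not being above background, while 5 further measured genes of the neuronal list were between -0.50 and 0.50.

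Noncoding RNAs stood at both ends of the ranking. RNA18SN5, 18S ribosomal RNA, which has near-identical copies that the probe does not separate, had levels of 11.65, 13.43 and 13.79, so most of its difference of 2.14 was also present with IGF1 alone. ZNF295-AS1, an antisense RNA, rose by 2.03 and SNORA2C, a small nucleolar RNA, by 1.81. SNORA65 fell by 1.91 and was lower by 1.15 with IGF1 alone. Of the 78 risen probes 2, of PAX8-AS1 (1.06) and SNORA16B (1.19), came from spots with raised local background on the FBS-free array. Of 92 measured SNORA genes 4 rose, SNORA16B among them, and 2 fell, with a median of -0.02, and of 145 SNORD genes 1 rose. Over all genes 0.33% rose and 0.124% fell.

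Genes of the ATF4 response, which cells use when amino acids are short, were slightly higher as a group. Of 38 measured members 33 were above 0 and 9 past 0.5, and none was below -0.5, with a median of 0.28, against 46.0% above 0 and 2.16% past 0.5 over all genes. CHAC1, which degrades glutathione, rose by 1.12, with 0.72 by its second probe. STC2, a secreted stanniocalcin that inhibits the protease PAPPA, was higher by 0.90, from levels of 7.75 in FBS-free medium and 6.95 with IGF1 to 8.65. DDIT4, an inhibitor of mTORC1, was higher by 0.75 ± 0.04 (SD over 10 spots), SLC7A11 by 0.65 and TRIB3, a pseudokinase, by 0.60. The median of the same genes with IGF1 alone was 0.30, so a higher level of this list was not confined to the array with OSI906, and both values share the FBS-free array. In U87Mut the median with IGF1 and OSI906 was 0.03.

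Heat shock genes, which encode chaperones, were lower. By their brightest probes 15 of 15 members were below 0, against 53.5% of all genes, with a median of -0.32, and 2 were past -0.5. In U87Mut the median was -0.02 and 8 of 15 were below 0. This order of the clones depends on the scaling: with channels scaled to 1 median, the list medians were -0.27 in U87WT and -0.39 in U87Mut. HSPA8, the constitutive Hsc70 chaperone, had levels of 13.45 in FBS-free medium, 13.04 with IGF1 and 12.65 with IGF1 and OSI906, a difference of -0.80. HSPA1B, an inducible Hsp70 with a near-identical neighbor, HSPA1A, differed by -0.56 and HSP90AB1 by -0.47. Other probes of HSP90AA1, HSP90AB1, HSPB1 and CHORDC1 lay above 0, up to 0.65 for HSP90AA1. With IGF1 alone the median of the list was 0.10.

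Cholesterol synthesis is controlled by SREBP2, which raises the whole enzyme chain when sterols fall. Of 27 measured genes of the list 20 were below 0 and 4 past -0.5, with a median of -0.26, and none was past 0.5. Over all genes 53.5% were below 0 and 2.18% past -0.5. IDI1, the isopentenyl diphosphate isomerase, read 9.83 in FBS-free medium, 9.96 with IGF1 and 9.09 with IGF1 and OSI906, a difference of -0.74. MSMO1, a sterol oxidase, differed by -0.65, HSD17B7 by -0.64, with values up to 0.04 by other probes, and HMGCS1, which makes HMG-CoA, by -0.54. INSIG1, an SREBP target singled out after its values were seen, lay above 0, at 0.26. U87Mut showed a lower median, -0.46, with 12 of 27 genes past -0.5, against 0.689% of the 15810 genes measured in both clones. In U87WT the median was 0.04 with IGF1 alone. In U87Mut the list median with IGF1 alone was not computed, but IDI1, MSMO1, HSD17B7 and HMGCS1 were at -0.46 to -0.49. Lower levels of these genes in U87Mut were thus not confined to the array with OSI906.

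Mitosis genes were lower by small amounts. Of 54 measured members 49 were below 0 and 5 past -0.5, against 53.5% and 2.18% of all genes. The median was -0.25, in U87Mut -0.17, and with IGF1 alone in U87WT -0.19. With channels scaled to 1 median it was -0.21 in U87WT and -0.44 in U87Mut, so the order of the clones depends on the scaling. CENPF, a kinetochore protein, was at -0.60, although its other probe was at 0.19, BUB1B, a spindle checkpoint kinase, at -0.59, CDCA8 at -0.54 and CDK1, the mitotic kinase, at -0.51. TOP2A, topoisomerase II, was at -0.56, and its level with IGF1 alone came from a spot with raised local background. DNA replication genes showed a median of -0.07 with none past 0.5 in either direction.

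**Figure D3:**
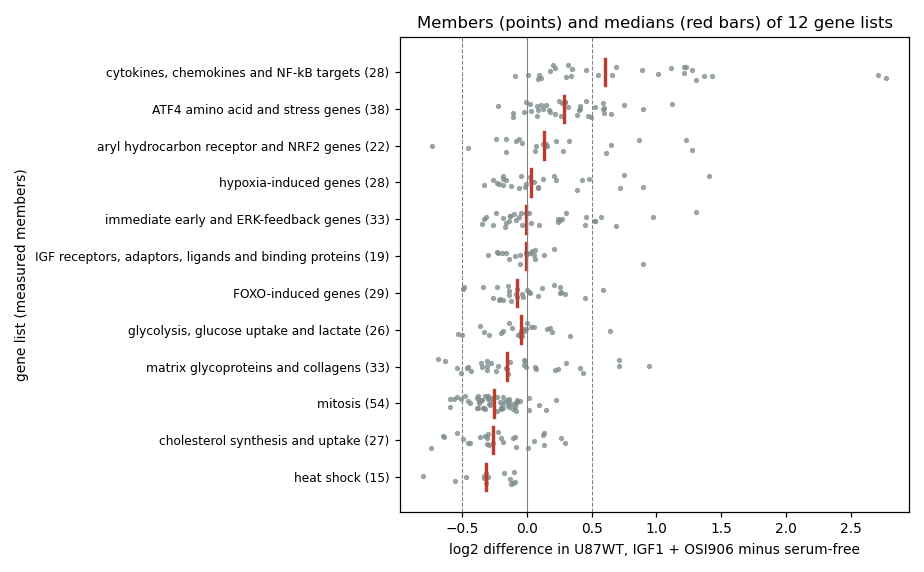
Log2 difference of U87WT, IGF1 with OSI906 minus FBS-free medium (x axis), for each measured member (points, spread vertically for visibility) of 12 gene lists, with red bars at the list medians and dashed lines at 0.5 and -0.5. The cytokine list reaches furthest to the right, with a median of 0.60, and the heat shock list lies wholly to the left of 0, with a median of -0.32.

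The receptor and its pathway changed little. IGF1R had levels of 8.84 in FBS-free medium, 8.94 with IGF1 and 8.54 with IGF1 and OSI906, a difference of -0.30 that was the same in U87Mut. Whether its probe reads the transgene was not determined. INSR, the insulin receptor, differed by 0.21, IGF2R by -0.05 and IRS2 by -0.23. IRS1, an adaptor of the receptor, was lower by 0.67 with IGF1 alone and with OSI906 stood at 0.06 from FBS-free medium. Of 19 measured genes of the IGF system STC2 alone was past 0.5, against 2.16% of all genes, and the median was -0.01.

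Genes that FOXO factors induce when AKT is inactive had a median of -0.08, the same as with IGF1 alone. Of 29 measured, 1 was past 0.5, against 2.16% of all genes. TXNIP, an inhibitor of glucose uptake chosen here after its values were seen, had levels of 11.08, 8.79 and 11.53, so it lay 2.29 lower with IGF1 and 0.45 higher with IGF1 and OSI906. SOD2, the mitochondrial superoxide dismutase, read 13.65, 12.90 and 14.24 and ended 0.59 above FBS-free medium. AXIN2, a Wnt target, read 7.99, 7.13 and 7.91, and CH25H, cholesterol 25-hydroxylase, 12.58, 11.63 and 12.40. By these probes the level with IGF1 and OSI906 was within 0.17 of FBS-free medium, while IGF1 alone was lower by 0.86 and 0.94. The second probe of AXIN2 read 7.30, 7.07 and 6.82, and was lowest with IGF1 and OSI906.

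Of 33 immediate early and ERK-feedback genes, which growth factors induce, 6 were past 0.5 and none below -0.5, with a median of -0.01. Over all genes 2.16% were past 0.5 and 2.18% below -0.5. IER3, described above, was the highest. FOSL1, an AP-1 subunit, was higher by 0.97 and EGR1 by 0.68, from levels of 7.84 in FBS-free medium and 7.08 with IGF1 to 8.53. JUN was at 0.53, and CCND1, cyclin D1, at 0.57 ± 0.03 (SD over 10 spots). CCND1 was at 0.53 with IGF1 alone, so the level with OSI906 differed from it by 0.04. FOS was at -0.33 and the ERK-feedback phosphatase gene DUSP5 at -0.32, both chosen after their values were seen.

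Metabolic genes were close to FBS-free medium. SLC2A1, the glucose transporter GLUT1, had levels of 9.72, 10.17 and 9.71, a difference of -0.01 with OSI906 against 0.45 with IGF1 alone. GAPDH at -0.06 ± 0.04 (SD over 10 spots), LDHA at -0.14, LDHB at -0.05 and FASN, the fatty acid synthase, at -0.07 did not differ by more than 0.15 by their brightest probes, while second probes of LDHA and LDHB were at -0.31 and 0.26. The glycolysis list had a median of -0.05, with HK2, hexokinase 2, at 0.64, its other probe at 0.16, and ENO2, a neuronal enolase, at -0.53. The TCA cycle list had a median of -0.08 and 1 member past 0.5, IDH2 at 0.60. Of 69 respiratory chain and ATP synthase genes and 77 cytosolic ribosomal protein genes none was past 0.5 in either direction. Over all genes 2.16% were past 0.5 upward and 2.18% downward. Of the lipid genes ACLY, which makes acetyl-CoA from citrate, was at -0.52, ELOVL1 and FADS3 at 0.54 each, GPAT3 at 0.61, ACSL5 at -0.21, DGAT1 at 0.07, PCYT1A at -0.17, LPCAT3 at -0.12 and SREBF1 at -0.33. SOD1 was at -0.27 and TGFB1 at -0.02.

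Matrix genes moved in both directions. Of 33 measured glycoproteins and collagens 3 were past 0.5 and 4 below -0.5, against 2.16% and 2.18% of all genes, with a median of -0.16. DCN, decorin, a proteoglycan that binds collagen and growth factors, read 9.84 in FBS-free medium, 8.72 with IGF1 and 10.78 with IGF1 and OSI906, a difference of 0.94. LUM, lumican, and COL6A2 were each higher by 0.71. LAMB1 and LAMC1, laminin chains, were lower by 0.69 and 0.63, COL5A2 by 0.54 and SPARC, a matricellular glycoprotein, by 0.51. For these 4 genes IGF1 alone was lower as well, by 0.50 to 0.94. Of the proteases ADAMTS5, which cleaves aggrecan, rose by 1.04, and PLAUR, the urokinase receptor, was at 0.55. WNT5A, a secreted Wnt ligand, was higher by 0.76, CA12, a carbonic anhydrase, by 0.72, SDF2L1, an endoplasmic reticulum protein, by 0.94, and TWIST1, a mesenchymal transcription factor, was lower by 0.78, though by -0.01 in its other probe.

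In the lists not described so far the medians lay between -0.10 and 0.05. Past 0.5 upward were F3 (0.51), IRF1 (0.71), PARP14 (0.51), SESN2 (0.59), CDKN2B (0.57, between 0.44 and 2.13 over the settings tried), H4C5 (0.84) and H4C1 (0.51). Past 0.5 downward were CCN1 (-0.53), IFI44L (-0.68), DDX60 (-0.61), TP53INP1 (-0.74), PDGFRB (-0.56), MITF (-0.66), H1-1 (-0.75) and H2BC7 (-0.56). Other probes disagreed for H4C1 (-0.29), TP53INP1 (0.25) and PDGFRB (-0.02). Lists of immune, endothelial and epithelial markers held no member past 0.5.

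The fallen genes were fewer, and 6 of the 31 fallen probes came from spots with raised local background on the FBS-free array. HMCN2 and FMO1 were 2 of these. Their spots had a brightness of 313 and 323 over a local background of 194 and 200 on the FBS-free array, against a background of 21 on the array with OSI906, and the second probe of HMCN2 was at 0.18. Likewise, 13 probes were well above background only on the FBS-free array and at least 2-fold lower with IGF1 and OSI906, and 13 of these 13 lay on such spots. RIT1 and PTPN9 fell by 1.67 and 1.42 with no raised background, from a brightness of 243 and 321 on the FBS-free array to 51 and 96. Each has 1 probe printed once. On the IGF1 array their brightness was 58 and 115, and with IGF1 alone they were lower by 1.61 and 1.32. Only the FBS-free spot was thus bright, as for HMCN2 and FMO1, with a brightness of 37 and 43 on the IGF1 array. On the same spots of RIT1 and PTPN9 U87Mut differed by 0.12 and 0.02 between FBS-free medium and IGF1 with OSI906.

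The brighter genes that fell were also below 0 in U87Mut, though none of those named here was past -1 there. For 30 fallen probes also above background with IGF1 alone, the median difference was -0.89 with IGF1 and -1.17 with IGF1 and OSI906. Among these 30 are the probes of HMCN2, FMO1, RIT1 and PTPN9 described above, so these medians are not of the brighter genes alone. The 78 risen probes had medians of 0.11 and 1.18. Every one of these medians rests on the same FBS-free array. ZC3H7B, a zinc finger protein, had levels of 9.33 in FBS-free medium, 8.16 with IGF1 and 7.55 with IGF1 and OSI906, a difference of -1.79 in U87WT and -0.95 in U87Mut. NPM3, a nucleoplasmin-family histone chaperone, read 10.60, 10.34 and 9.31, a difference of -1.29, and TAF15, an RNA-binding protein of the FET family, 11.77, 11.68 and 10.55, a difference of -1.22. In NPM3, TAF15, TMEM65 (-1.13) and UTS2R (-1.07), a receptor for urotensin, IGF1 alone differed by no more than 0.35 from FBS-free medium. APH1A, a gamma-secretase subunit, fell by 1.36 and PPP1R3C, a glycogen-targeting subunit of protein phosphatase 1, by 1.03, and here IGF1 alone was lower by 0.94 and 0.74. LOC101927499 was at -1.66, SNORA28 and PLS3, plastin 3, were barely past -1, and the next in order, LOC100132077, DAPL1, ZNF428 and AHI1-DT, were at -0.99 each and did not pass 1.

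Differences were smaller in U87Mut than in U87WT. Each clone kept its own dye on all 3 arrays, so clone and dye cannot be told apart. In U87Mut 11 of 29806 probes rose (0.0369%) and 6 fell (0.0201%), with 0.577% past 0.5 upward and 0.476% downward, and the SD of the difference over probes was 0.16, against 0.22 in U87WT. The 78 probes that rose in U87WT were all measured in U87Mut, where 76 were above 0 and 8 past 1, with a median of 0.52 against 1.18. They were chosen for their size in U87WT, which by itself makes the other value smaller. Of the 31 fallen probes 28 were measured in both clones and 23 of these were below 0 in U87Mut, with a median of -0.43 against -1.17. Over the 28978 probes above background in both clones the differences had a Pearson correlation of 0.52 and a Spearman correlation of 0.43, a description only, since both clones share every array and spot and probes are not independent.

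For the difference between the changes of the clones, 17 of 28978 probes lay above 1 and 17 below -1 (0.0587% each). This split depends on the scaling: with channels scaled to 1 median, 115 probes lay above and 5 below, and the median difference of all probes in U87Mut was then -0.15. The change of U87WT exceeded that of U87Mut most in CSF3 (2.71 against 0.73), TFPI2 (1.78 against 0.28), RNA18SN5 (2.14 against 0.75), APOL6 (0.85 against -0.48) and IL1B (2.77 against 1.46). It was furthest below it in RIT1, HMCN2, SNORA65, PTPN9 and FMO1, of which HMCN2 and FMO1 lie on the raised spots. In the cytokine list 26 genes were measured in both clones, with a median of 0.67 in U87WT and 0.24 in U87Mut. In U87Mut 7 of them were past 0.5, against 0.702% of all genes measured in both. Over the settings in which the clones were compared, the median of these 26 genes was 0.61 to 0.88 in U87WT and 0.07 to 0.36 in U87Mut. The value of 0.07 came with channels scaled to 1 median. No gene past 1 in U87WT was past 1 in the opposite direction in U87Mut. Without replicates, a difference between clones in 1 gene was not tested.

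**Figure D4:**
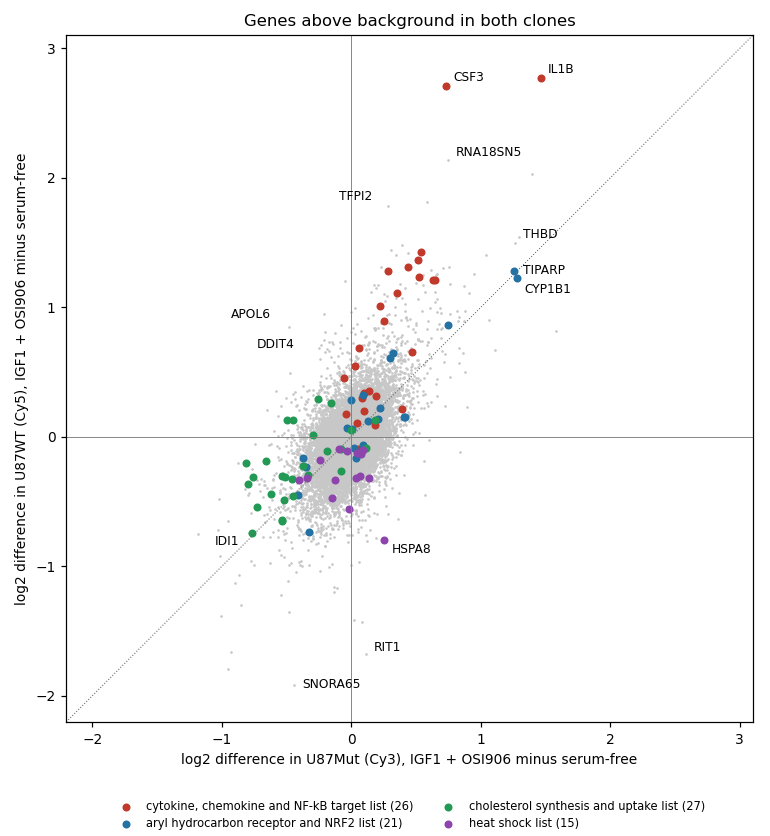
Log2 difference, IGF1 with OSI906 minus FBS-free medium, in U87Mut (x axis) and U87WT (y axis) for genes above background in both clones (grey), with 4 gene lists in color; the dotted line marks equal differences. Most cytokine genes (red) lie above the dotted line, IL1B at 2.77 in U87WT and 1.46 in U87Mut. TIPARP and CYP1B1 (blue) lie close to the line at 1.23 to 1.28 in either clone, and HSPA8 (purple) is at -0.80 in U87WT and 0.26 in U87Mut. The distance of genes from the line depends on how the channels are scaled.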

How the data were processed

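The intensity values were deposited by the authors straight from Agilent Feature Extraction, as the file headers show: median brightness and median local background of every spot in each channel, without normalization, with marks for outliers and for spots well above background. The processed intensities of the same software were used in an alternative. Per the labels the authors used limma for their own values, a deposited table of log2 ratios between clones, which was not used here since it holds no level of U87WT alone.

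Background was corrected with normexp (limma 3.58.1, R 4.3.3; offset 50, fitted without spots marked as not uniform). Then 2075 of 62976 spots, the controls, were removed, the 6 channels were quantile-normalized, spots marked as outliers were dropped and repeated spots of a probe were averaged. Probes were kept when well above background in Cy5 on both arrays (for repeated probes, on most of the spots). RefSeq transcripts (GRCh38.p14) named 34888 of 36770 probes with such an accession. A gene was represented by its brightest probe. The steps were tested on simulated data.

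Genes named are the 15 highest and 15 lowest with a mean level of at least 8 and all probes in 1 direction, up to 4 members per list and direction past 0.5, genes the paper measured or named, and the 5 largest differences between clones in each direction; others were singled out after their values were seen. The members, the 33 gene lists and the limits were chosen with earlier results of these data known. No test was possible with 1 array per condition. Some members of the lists are counted but not reported here by name.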

Additional observations from a re-analysis of the deposited data

Results flagged for a closer look

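Among the named genes, 3 moved in opposite directions in the clones, each by more than 0.21, which is 3 times the median SD over repeated spots; the differences between clones were not tested. APOL6, an apolipoprotein L gene, was at 0.85 in U87WT and -0.48 in U87Mut, a difference of 1.33, and its other 2 probes in U87WT gave values down to -0.03. DDIT4 was at 0.75 in U87WT and -0.21 in U87Mut, a difference of 0.957, and its 10 spots had an SD of 0.04 and 0.05 in the 2 clones. HSPA8 was at -0.80 in U87WT and 0.26 in U87Mut, a difference of -1.05, although with channels scaled to 1 median its value in U87Mut was -0.13.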

How the results depend on the processing

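Counts of probes past the limit depended on how background was handled. Given as probes risen and fallen in U87WT, then probes whose change exceeded or fell short of that of U87Mut, the counts were 140 and 126, then 48 and 73, without background correction, 137 and 62, then 43 and 28, with an offset of 20, 225 and 155, then 152 and 107, with an offset of 0, and 476 and 532, then 443 and 437, with the processed signal of the scanner software. Genes fallen were 63, 43, 95 and 257 in these settings, and genes risen 112 with an offset of 0 and 215 with the processed signal. With normexp fitted on all spots, 16 probes and 13 genes fell and 8 probes fell short of U87Mut. Past 0.6 in place of 1 the counts were 402 and 251, then 217 and 125, and 234 and 186 for genes. Scaling to 1 median gave 115 probes above and 5 below in the comparison of the clones, and no filter on dim probes gave 36 below. Of the 78 risen probes 57 to 78 and of the 31 fallen 16 to 31 were kept past 1 in the 12 settings that keep this limit. IL1B stayed between 2.68 and 2.96, CSF3 between 2.01 and 3.06, TIPARP between 1.24 and 1.37 and CYP1B1 between 1.15 and 1.37, and the median of the cytokine list between 0.34 and 0.80, the heat shock list between -0.35 and -0.18 and the cholesterol list between -0.31 and -0.22. LIF fell to 0.82 and VEGFA to 0.93 in 1 setting each, the mean of all probes. Wider ranges were seen in other genes, such as CDKN2B between 0.44 and 2.13, DDX60 between -1.30 and -0.48 and RIT1 between -3.06 and -1.35. Leaving out spots with raised local background, chosen after seeing the data, left 76 risen and 25 fallen probes and turned HMCN2 to 0.18, by its other probe. The causes of these shifts were not tested, apart from the change of probe for HMCN2 and the averaging of probes for LIF and VEGFA. Mean in place of median spot brightness was not run. The clones were not compared under quantile normalization of the 2 Cy5 channels alone, which includes no U87Mut channel. No paired analysis was possible because each condition has 1 array. Dim probes are limited by the offset, since a signal near background cannot show a large difference.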
